A study of Mus musculus with 4 samples.

Results

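The control library of an m6A-eCLIP experiment in mouse fibroblasts was described here gene by gene. Its members were all 15439 regions that the authors listed as enriched in that library over its input, of 32707 regions in the 3 deposited lists. The cells were E1A;HRasV12 mouse embryonic fibroblasts, made with a pair of oncogenes that together transform primary cells, and they carried control shRNAs, named for luciferase in the sample title. They had received doxorubicin, a drug that traps topoisomerase II and breaks DNA, at 0.2 µg/ml for 6 h. Purified mRNA went into the m6A-eCLIP library and total RNA into the input, with 1 library of each. A fold over input can therefore also hold differences between mRNA and total RNA. A listed region is antibody enrichment over input, and its dependence on Mettl3 was not used here. The series also holds a doxorubicin-treated Mettl3-knockdown condition, which is not described here, and no untreated cells. The sources used here name no clone, vector or number of cultures. With 1 library over 1 input there is no replicate check, no p-value was computed, and all folds over input are the authors' own values per peak.

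N6-methyladenosine, or m6A, is the most abundant internal modification of mammalian mRNA. It is placed on nascent transcripts by a complex whose catalytic subunit is Mettl3, with Mettl14 and adaptor proteins, and it is read by YTH-domain proteins that act in splicing, export and decay of mRNA. Methylation is known to occur in the DRACH context and to favour long internal exons and the surroundings of the stop codon. In m6A-eCLIP an anti-m6A antibody is crosslinked to RNA fragments, the bound fragments are sequenced, and enriched positions are called against the input.

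The deposited peaks were often pieces of a longer enriched region. Of the peaks, 7410 pairs on the same strand shared a border and 0 pairs overlapped. Peaks that touched were therefore joined into stretches, which gave 8029 stretches in 4765 genes, and 16 stretches carried no gene name. All further counts are of these stretches unless peaks are named.

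Sequence was at hand only where a stretch crossed a RefSeq window around a gene start, built on GRCm38, the assembly that mm10 denotes. Of the 8029 stretches, 112 touched such a window, 25 lay wholly inside one, and 34 lay in the window of their own gene on its strand. The 8029 include stretches of a chromosome left out of the sequence search, named under the processing, which could not be matched. The windows covered 12089 bases of stretch. The sequences below are runs of at most 30 bases from coding sequence, an intron and a noncoding exon. They are shown because they carry the letters that m6A is known to favour, and the last because it does not. Each is written 5′ to 3′ on the strand of the stretch, and capitals mark GGAC, 1 form of the DRACH core.
Klf7, coding sequence, chr1:64079260-64079289, minus strand: atctcggagacctttggtgaGGACttGGAC
A930004D18Rik, coding sequence, chr2:18027099-18027128, minus strand: tGGACaggtgcacgtactataGGACtGGAC
Prdm8, coding sequence, chr5:98185988-98186017, plus strand: cggcggtggcggcgcggGGACcgcggGGAC
Pcif1, coding sequence, chr2:164891194-164891223, plus strand: ggtggcagcaGGACttgagctgccagGGAC
Etv1, intron, chr12:38779962-38779991, plus strand: cgacagtgctttaaGGACataataatGGAC
1110002L01Rik, noncoding exon, chr12:3426955-3426976, minus strand: gctctacggggtggccggtcct

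Klf7 and Prdm8 encode zinc finger transcription factors, Etv1 an ETS factor, and Pcif1 the enzyme that methylates cap-adjacent adenosine in mRNA. The Klf7 run lay in a stretch of 476 bases and 2 peaks whose largest log2 fold was 3.29. At the run itself the log2 fold was 3.02. The Pcif1 run lay in a stretch of 1 peak and 209 bases with a log2 fold of 3.62. The peak of 1110002L01Rik, shown whole at 22 bases, had a log2 fold of 4.55 and held no GGAC on its own strand and 1 on the other.

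GGAC was searched alone, on both strands, so no second motif could overlap it. Over the 12089 covered bases it occurred 118 times on the strand of the stretch, or 9.76 times per 1000 bases, and 36 times on the other strand, or 2.98 times per 1000 bases. The 32817 searched RefSeq windows of 300 bases held it 3.82 times per 1000 bases on the strand of the gene. On the other strand they held it 3.87 times per 1000 bases. Of these windows, 65.6% held it at least 1 time on the strand of the gene. Of the 63 stretches with at least 100 covered bases, 50 held GGAC on their own strand and 26 on the other. The motif was thus denser on the strand of the stretch, which has the sequence of the RNA, than on the opposite strand of the same bases. These stretches all lie near an annotated gene start, often that of a neighbour, so they are not a sample of the library, and a motif match is a description and not a mapped site.

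Stretches also covered microRNA hairpins of RefSeq. The whole 98-base hairpin of miR-671 lay under a stretch of 4 peaks and 324 bases at chr5:24592101-24592424, which is also coding sequence of Chpf2, an enzyme of chondroitin sulfate synthesis, and its largest log2 fold was 3.83. Of the 73-base hairpin of miR-707, 14 bases lay under a 180-base stretch with a log2 fold of 3.25. The mature sequences are shown because they are the annotated products under or beside these stretches, with the seed, bases 2 to 8, in capitals.
mmu-miR-671-5p: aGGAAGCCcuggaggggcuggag
mmu-miR-671-3p: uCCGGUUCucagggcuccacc
mmu-miR-707: cAGUCAUGccgcuugccuacg
The 3 seeds differ from each other. A stretch over a hairpin cannot be told apart from a stretch on the mRNA that shares its bases.

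Most genes with a stretch carried few of them. Of the 4765 genes, 2867 held 1 stretch (60.2%, exact 95% interval 58.8 to 61.6), 1080 held 2 (22.7%), 477 held 3 (10.0%) and 201 held 4 (4.22%). At least 3 stretches were found in 818 genes (17.2%), and at least 5 in 140 genes (2.94%, interval 2.48 to 3.46). No gene held more than 9, a number reached by 7 genes. The 140 genes with at least 5 stretches are called densely methylated below. The term counts separate stretches, is not corrected for gene length and says nothing of the share of molecules methylated. These 140 genes held 802 of the 8064 stretches counted by gene, or 9.95%. Intervals here and below cover counting error only, and neighbouring stretches or genes are not independent.

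**Figure D1:**
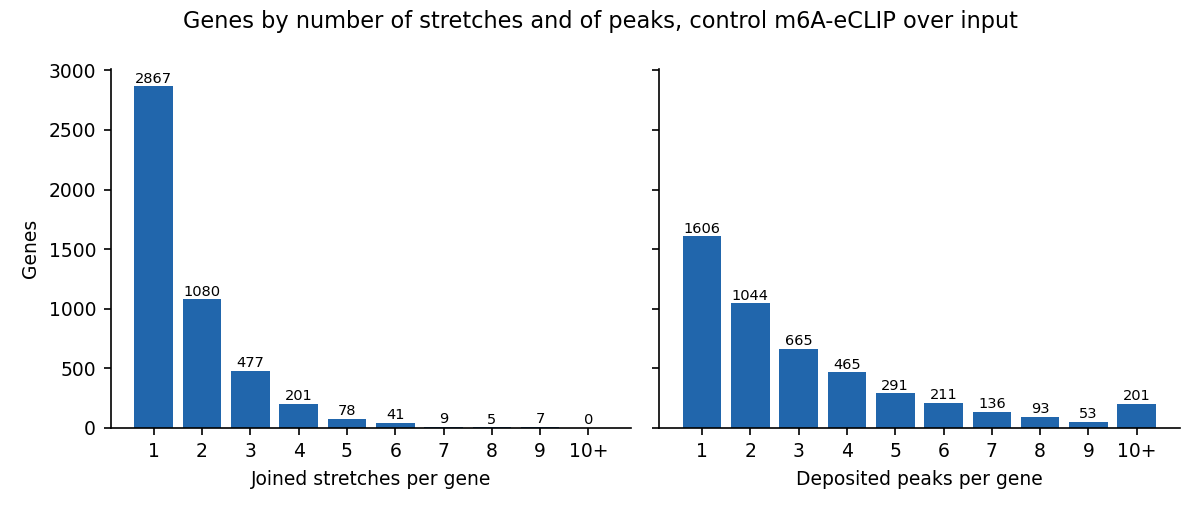
Number of genes (vertical axis) by joined stretches per gene (left) and by deposited peaks per gene (right), with the last bar holding 10 or more and the number printed above each bar. By stretches, 2867 genes hold 1 and 0 genes reach 10, while by peaks the right tail extends past 10.

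Counted by deposited peaks, the same genes were ordered differently. The median gene held 2 peaks and the largest number was 66, against a median of 1 stretch. Of the 985 genes with at least 5 peaks, 235 (23.9%) held only 1 stretch. Of the 140 genes with at least 5 stretches, 34 were also among the 140 genes with most peaks. Over all 4765 genes, 60.2% held 1 stretch. A high peak number thus meant 1 finely divided stretch in a minority of genes, and most of them held more than 1.

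Stretches were short relative to a transcript. Their median length was 227 bases (quartiles 151 and 311, range 2 to 1051), against 119 bases for the deposited peaks. Of all stretches, 280 (3.49%) were shorter than 50 bases and 350 (4.36%) reached 500 bases. The median gene had 334 bases under stretches (quartiles 220 and 537), and the most was 2589 bases, in Dchs1. In all, 1961356 bases were under stretches, and the 476 genes with most bases held 25.3% of those counted by gene.

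Length differed by the region in which the authors placed the peaks. Stretches in coding sequence alone numbered 4252 (53%) with a median of 244 bases, and those in 3′ UTRs alone numbered 1855 (23.1%) with a median of 199 bases. Stretches that ran from coding sequence into the 3′ UTR, and so over a stop codon of the annotation, numbered 522 (6.50%). Their median length was 354.5 bases, their median largest log2 fold was 4.21, and they averaged 4.26 peaks. Coding-only stretches had a median largest log2 fold of 3.60 and 1.81 peaks on average, and 3′ UTR stretches 3.63 and 1.86 peaks. A stretch needs at least 2 peaks to span 2 regions, because every deposited peak has 1 region. Part of the difference in length and peak number therefore follows from how the class is defined. The largest fold is likewise taken over more peaks there. Over all stretches its median log2 value was 3.44 at 1 peak, 3.82 at 2 and 4.21 at 3 or 4. A difference in fold at equal peak number was not tested.

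**Figure D2:**
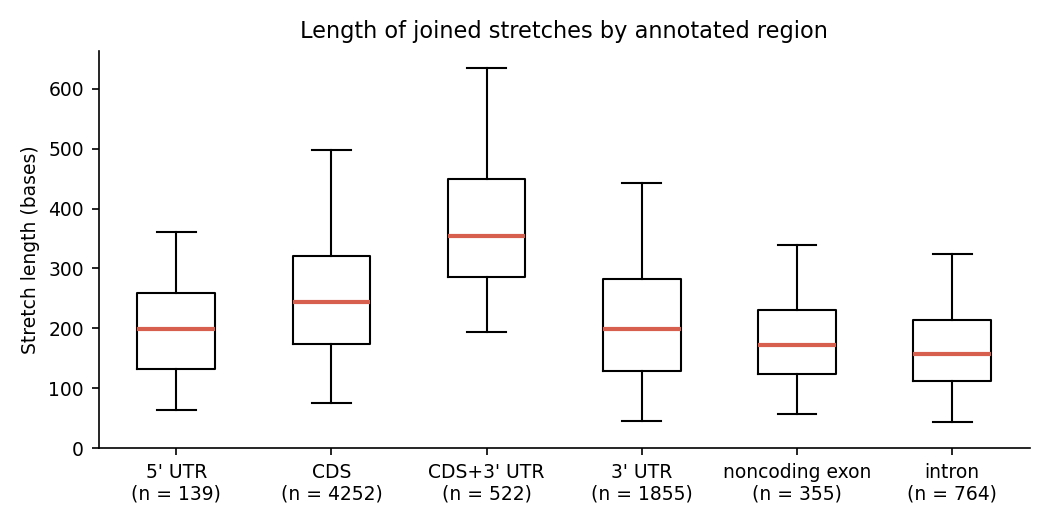
Length of joined stretches in bases (vertical axis) by annotated region, with n under each box. Boxes give the quartiles, the coloured line the median, and whiskers the 5 and 95 percentiles. Stretches that join coding sequence and 3′ UTR sit highest, with a median of 354.5 bases, and intronic ones lowest, with a median of 157.5.

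Smaller classes followed. Intronic stretches numbered 764 (9.52%) with a median of 157.5 bases, and 88% of them were 1 peak. Noncoding exons held 355 stretches (4.42%) with a median of 173 bases. The 5′ UTR alone held 139 (1.73%) with a median of 199 bases, and 31 stretches joined 5′ UTR and coding sequence at a median of 315 bases. The median largest log2 fold was similar across the classes of 1 region, from 3.55 in 5′ UTRs to 3.64 in noncoding exons.

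Genes combined regions in a few ways. Coding sequence was the only region in 1956 genes (41.0%), the 3′ UTR in 898 (18.8%), and both together were found in 917 (19.2%). Introns alone accounted for 335 genes (7.03%) and noncoding exons alone for 220 (4.62%). Stretches in more than 1 region class were found in 1298 genes (27.2%, interval 26.0 to 28.5), and in at least 3 classes in 93 genes (1.95%). Among the 1898 genes with at least 2 stretches, 944 (49.7%) had more than 1 class, 670 (35.3%) had coding stretches only and 143 (7.53%) had 3′ UTR stretches only. Of all stretches, 645 (8.03%, interval 7.45 to 8.65) spanned more than 1 class themselves.

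Additional stretches within a gene came with shorter stretches and with larger top folds. In genes with 1, 2, 3, 4 and at least 5 stretches, the median length of a stretch was 255, 231, 210, 202 and 194 bases. The median joined length per gene was 254, 480, 662, 877 and 1118.5 bases. The median of each gene's largest log2 fold was 3.71, 4.05, 4.18, 4.34 and 4.43, whereas the median of each gene's median log2 fold stayed between 3.58 and 3.64. The largest fold is taken over more peaks where a gene has more stretches, and the typical fold hardly moved with their number. Coding stretches were present in 56.7%, 78.0%, 82.6%, 85.6% and 90% of these genes, and 3′ UTR stretches in 37.4%, 43.4%, 51.2%, 49.8% and 50%. The median RefSeq span, introns included, was 26101, 30478.5, 34503, 34627.5 and 58809.5 bases in the same order. Gene length thus moved with the number of stretches, and its part in the counts was not tested.

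Of the 140 densely methylated genes, 126 (90%) carried a coding stretch and 70 (50%) a 3′ UTR stretch. Coding sequence was the only region in 40 (28.6%), and the authors' annotation gave an intron to a stretch in 36 (25.7%). These 36 include Hps6, Zbtb22 and Rbm15b, whose whole RefSeq spans are 2696, 3150 and 6148 bases, and the transcript models behind those intron labels were not checked here. Only 8 had neither a coding nor a 3′ UTR stretch.

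Neighbouring stretches of a gene lay close together. The median gap was 465 bases of genome (quartiles 145 and 2459, 3299 gaps), and 65.0% of gaps were at most 1000 bases. Between neighbouring coding stretches the median gap was 406.5 bases (1506 gaps), and between neighbouring 3′ UTR stretches it was 234 bases (380 gaps). Gaps of at most 50 bases made up 8.91% and those of at most 200 bases 31.6%, so the count of stretches depends on what is joined. Genomic gaps include introns, and distances along the spliced transcript were not used here.

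Stretches gathered towards the 3′ end of the gene. Of 7641 stretches that lay inside the RefSeq span of their gene, 54.3% (interval 53.2 to 55.4) had their centre in the last 20% of the span. The preceding steps of 20%, from the 5′ end on, held 9.37%, 8.77%, 10.5% and 17.0%. Stretches in the 3′ UTR ended a median of 1585 bases before the annotated gene end (1800 stretches), and those over a stop codon 1630.5 bases before it (506 stretches). Spans contain introns, which are often long near the 5′ end, so the scale is genomic and not that of the mRNA.

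The most densely methylated genes included many that encode very large proteins. Dchs1, Kmt2d, Fat1, Zfhx4, Gm20388 and Airn were among the genes with 9 stretches, and Spen, Stard9 and Ahnak held 8. Dchs1 and Fat1 are giant cadherins, Kmt2d is a histone H3 lysine 4 methyltransferase, and Zfhx4 is a homeobox and zinc finger factor. Spen is a transcriptional repressor that binds Xist RNA, Stard9 a kinesin and Ahnak a scaffold protein of extreme size. Ranked by bases under stretches, the first 10 included Dchs1 with 2589, Kmt2d with 2476, Mga with 2378, Zfhx3 with 2183, Spen with 2155, Dido1 with 2091, Fat1 with 2052, Zfhx4 with 1929 and Pkd1 with 1868. The rankings by stretches and by bases shared 6 of 10 genes. Mga is a MAX-binding repressor, Zfhx3 a relative of Zfhx4, Dido1 a PHD-finger protein and Pkd1 the membrane protein polycystin-1.

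The stretches of Dchs1 all lay in its coding sequence. Its 9 stretches, on the minus strand between chr7:105753232-105772370, were 144 to 491 bases long and consisted of 1 to 3 peaks. Their largest log2 folds lay between 3.07 and 4.43, the highest in the stretch at chr7:105755046-105755402. Dchs1 therefore reached the top of the ranking with 13 peaks in all, each of moderate fold. The stretches covered 7.32% of its 35367-base RefSeq span.

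Kmt2d showed the same restriction to coding sequence. Its 9 stretches, between chr15:98843818-98863774 on the minus strand, ranged from 45 to 470 bases. The largest log2 fold was 5.19, in a 407-base stretch of 6 peaks nearest the 3′ end of the gene, and 4 stretches of 1 peak lay between 3.03 and 3.20. High and barely passing stretches thus stood side by side in this gene.

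Fat1 combined many stretches with very fine division. Its 9 stretches, on the plus strand between chr8:44950794-45051544, held 57 peaks. The stretch at chr8:45050811-45051274 held 27 of these in 464 bases of coding sequence, with a largest log2 fold of 6.02, or 65.0 in linear terms. The other 8 stretches had largest log2 folds of 3.07 to 5.06, and the last of them, at chr8:45051369-45051544, crossed from coding sequence into the 3′ UTR. Ahnak held 66 peaks in 8 coding stretches of 37 to 346 bases, with largest log2 folds of 3.36 to 4.77. On the map its stretches lie in the 5′ part of the gene span, where few stretches of all genes lay.

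Airn and Gm20388 entered the top 10 without being large coding genes. Airn is a long noncoding RNA of an imprinted cluster, transcribed antisense to Igf2r. All 9 of its stretches, at chr17:12769633-12828049 on the plus strand, were annotated as intron, each was 1 peak of 33 to 284 bases, and log2 folds ran from 3.03 to 4.13. For Gm20388, whose name matched no RefSeq gene, 7 of 9 stretches were intronic and lay scattered over chr8:121653614-124093648, with log2 folds of 3.10 to 5.40. The assignment of those stretches to Gm20388 is that of the authors' annotation.

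**Figure D3:**
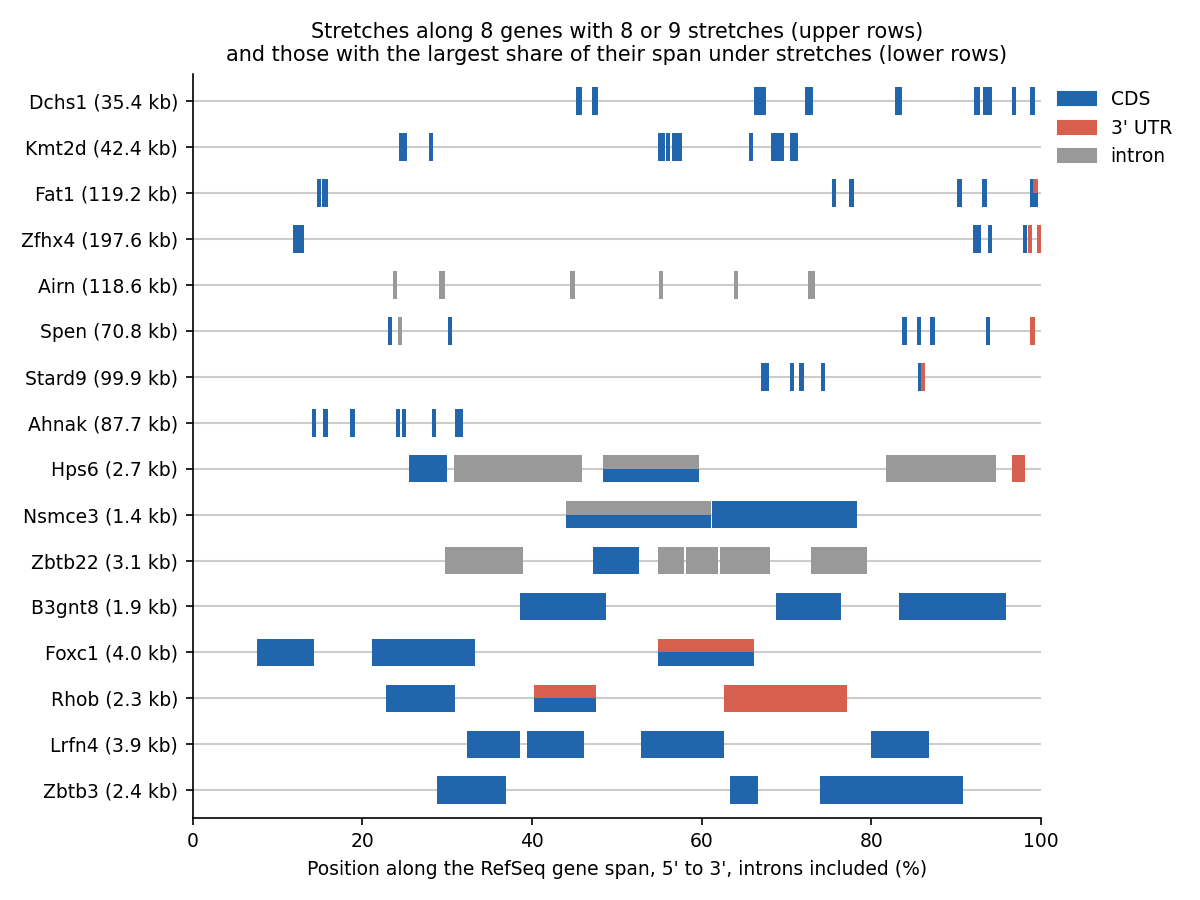
Stretches along the RefSeq span of a gene, 5′ to 3′ with introns included (horizontal axis, percent of the span), coloured by annotated region, with split bars where a stretch spans more than 1 region. The upper 8 rows are genes with 8 or 9 stretches that the text describes, without Gm20388, which has no RefSeq span, and the lower 8 rows are the genes with the largest share of their span under stretches. Stretches narrower than 0.5% of the span are drawn at that width, so near neighbours merge in long genes, as in Airn. Stretches of Dchs1 spread over the 3′ part of the gene and those of Ahnak stay in the 5′ part.

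Relative to gene length the order was another one. Among genes with at least 3 stretches, the share of the RefSeq span under stretches was largest in Hps6 at 45.3%, followed by Nsmce3 at 34.1%, Zbtb22 at 34.1%, B3gnt8 at 30.5%, Foxc1 at 30.1%, Rhob at 30%, Lrfn4 at 29.5% and Zbtb3 at 28.4%. This measure was chosen after the files were seen, in place of a share of coding length. Hps6 encodes a subunit of a lysosome-biogenesis complex and Nsmce3 a subunit of the SMC5/6 complex. Zbtb22 and Zbtb3 are zinc finger proteins, B3gnt8 is a glycosyltransferase, Foxc1 a forkhead factor, Rhob a small GTPase induced by DNA damage and Lrfn4 an adhesion molecule. Their spans ran from 1359 to 3990 bases, so this order favours short genes.

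Hps6 held 5 stretches in a span of 2696 bases, at chr19:46004166-46006121 on the plus strand. They were 41 to 406 bases long, and the largest log2 fold was 5.05. The authors' annotation put peaks of 3 stretches in an intron of a noncoding transcript. Coding peaks were found in 2, and 1 was a 3′ UTR stretch. Foxc1 held 3 stretches of 265, 481 and 453 bases, the last of them over the stop codon with a largest log2 fold of 4.16. Rhob held 340, 172 and 192 bases, and its highest log2 fold of 5.31 lay in the 3′ UTR stretch.

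The longest stretches were found in other genes again. They were 1051 bases in Itpkb, an inositol trisphosphate kinase, 1017 in the zinc finger gene Zbtb26 and 1013 in Irf2bpl, a transcriptional regulator. Then came 957 bases in Znrf3, a ubiquitin ligase that removes Wnt receptors, 953 in the zinc finger gene Zfp639, 951 in the chromatin remodeller Chd6, 941 in Klf9 and 932 in Wbp1l. Klf9, a transcription factor, had no other stretch: its 8 peaks ran without interruption from coding sequence into the 3′ UTR, with a largest log2 fold of 4.37. The largest log2 folds of these long stretches ran from 3.73 in Zfp639 to 5.15 in Wbp1l. The longest, in Itpkb, reached 3.94, so the order by length was not the order by fold.

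The region classes of a gene were most varied in Nr2f2 and Lats2, with 4 each. Nr2f2, an orphan nuclear receptor also known as COUP-TFII, held a 3′ UTR stretch of 278 bases, a coding stretch of 306, a stretch of 348 bases across the start codon and 2 intronic ones of 180 and 125. Its highest log2 fold, 4.70, belonged to the stretch across the start codon. Lats2, a kinase of the Hippo pathway, reached its 4 classes with 3 stretches, the highest at 4.97 in an intron. Spen, Maml3, Pcdh7, Mtcl1, Gm20388 and 2010111I01Rik had 3 classes. Maml3 is a Notch coactivator, Pcdh7 a protocadherin and Mtcl1 a microtubule-binding protein.

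Among densely methylated genes the typical fold varied. The largest median log2 folds were 4.71 in the noncoding gene A730017L22Rik, 4.39 in Cdk13, 4.37 in Rbm15b, 4.32 in Slc5a3 and 4.23 in Socs6. Cdk13 phosphorylates RNA polymerase II, Rbm15b guides the m6A methyltransferase to RNA, Slc5a3 transports myo-inositol and Socs6 belongs to the suppressors of cytokine signalling. Among the smallest were 3.13 in Cstf1, a cleavage stimulation factor subunit, 3.16 in Dclre1a, a nuclease of crosslink repair, 3.19 in Maml3 and 3.19 in Prr12. Since the list starts just above a log2 fold of 3, these medians lay just above the authors' limit. The largest log2 folds of these genes were higher, at 3.93 in Prr12, 3.77 in Cstf1 and 3.66 in Dclre1a. Maml3 had 8 stretches and a largest log2 fold of 3.63.

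Finely divided stretches showed the shape of enrichment. Stretches of 1 peak numbered 4894 (61.0%), those of 2 peaks 1623, of 3 or 4 peaks 1013, of 5 to 9 peaks 401 and of at least 10 peaks 98 (1.22%). In that order the median length was 182, 286, 352, 410 and 415 bases and the median largest log2 fold was 3.44, 3.82, 4.21, 4.61 and 5.02. The share with a peak at 400, where the deposited −log10 p stops, was 26.2%, 55.7%, 79.0%, 97.0% and 100%. Stretches of more peaks thus had larger top folds and more often a peak at that limit. Their length levelled off and the pieces shrank to a median of 16 bases. Both measures take the best of more peaks in such stretches, and whether either rise goes beyond that was not tested. In the 1512 stretches of at least 3 peaks, the highest peak lay in the middle of 3 equal parts in 929 (61.4%, interval 58.9 to 63.9), in the 5′ part in 257 (17.0%) and in the 3′ part in 326 (21.6%). It was at an end of the stretch in 299 (19.8%). The list keeps only peaks above a log2 fold of 3, and inner pieces lie nearer the middle than end pieces do. Part of this pattern can therefore follow from how stretches are built. The highest and lowest peaks of such a stretch differed by a median of 0.89 on the log2 scale.

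The most divided stretches belonged to Hspa5 with 33 peaks, Aebp1 with 31, Jun and Phlda3 with 30, Fat1 with 27, and Neat1 and Xist with 26. These genes were picked after their values were seen. Hspa5 encodes the endoplasmic reticulum chaperone BiP, Aebp1 a secreted matrix protein, Jun an AP-1 subunit and Phlda3 a p53 target that restrains Akt. Neat1 is the scaffold RNA of paraspeckles and Xist the RNA that silences an X chromosome.

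The Hspa5 stretch of 437 bases, with 289 coding and 148 3′ UTR bases, started at a log2 fold of 3.35, reached 5.10 at bases 350 to 355 in the 3′ UTR, and ended at 3.09. In Jun a stretch of 532 bases started at 4.27, peaked at 5.88 at bases 402 to 405 in the 3′ UTR and ended at 3.73. The Jun maximum thus lay beyond the stop codon, as did that of Hspa5. In Aebp1 the maximum of 5.15 was at bases 112 to 115 of 345, within its 130 bases of coding sequence. Phlda3 peaked at 4.70 at bases 102 to 105 of a 358-base stretch wholly in the 3′ UTR. In Fat1 the profile peaked at 6.02 at bases 139 to 144 and in Neat1 at 4.42 at bases 132 to 138 of 261. In all 6 the profile moved in steps, and the maximum exceeded the values at both ends.

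**Figure D4:**
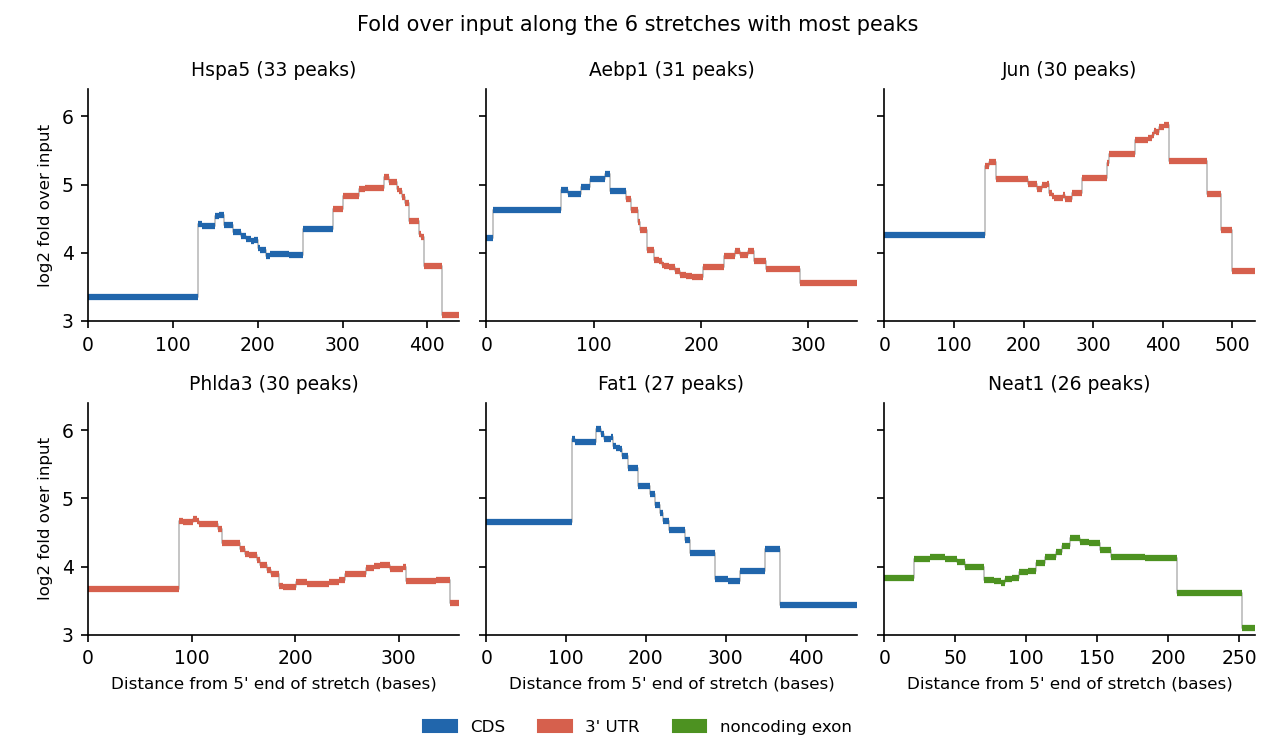
The authors' log2 fold over input (vertical axis, from 3, the lower limit of the list) along the 6 stretches with most peaks, by distance in bases from the 5′ end of the stretch. Each thick bar is 1 deposited peak, coloured by annotated region, and Xist, tied with Neat1 at 26 peaks, is not drawn. Maxima range from 4.42 in Neat1 to 6.02 in Fat1 and lie inside the stretches, not at their ends.

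The number of peaks in a gene ranked other genes first, with 66 in Ahnak and in Xist, 57 in Fat1, 53 in Cep170b, 38 in Egr1, 33 in Peg10, Jun and Hspa5, 32 in Son and 31 in Aebp1. Only Ahnak and Fat1 were also among the 10 genes with most stretches. Xist held its 66 peaks in 4 stretches of its exons, of 289, 333, 41 and 403 bases, with largest log2 folds of 4.87, 5.80, 3.54 and 5.82. Egr1, a growth-induced zinc finger factor, held 38 peaks in 4 stretches of 67 to 106 bases, with 364 bases in all. It was finely divided and closely spaced, and its largest log2 fold of 4.77 lay in the stretch that crosses the stop codon.

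Functional lists differed in how many members carried a stretch. As background, 4399 of 21887 RefSeq protein-coding genes (20.1%) had at least 1 stretch, and of all genes with a stretch 17.2% had at least 3 and 2.94% at least 5. A member without a stretch may be unexpressed, unmethylated or below the authors' limits, which the list cannot tell apart. The lists were put together with earlier results of these data known, so their counts are descriptions.

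Regulators of chromatin often carried stretches, and often several each. Of 52 chromatin modifiers, 41 (78.8%, interval 65.3 to 88.9) had a stretch, 24 had at least 3 and 9 at least 5, with a median of 3 among those with a stretch, against a median of 1 over all genes. Coding sequence was the only region in 23 of the 41. After Kmt2d, the most stretches were found in Kmt2c with 7 and in Nsd1, Setd1b and Kmt2a with 6, all histone methyltransferases. Kmt2c had 7 stretches of 1 peak in 1086 bases with a largest log2 fold of 3.60, against 12 peaks in 1838 bases and 4.60 in Nsd1. Nearly equal numbers of stretches thus went with different folds. The RefSeq spans of the methyltransferases named here ran from 26591 bases in Setd1b to 227061 in Kmt2c. The part of gene length in the counts of this list was not tested.

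The giant cadherins and Notch receptors, cell-surface proteins with long coding sequences, had stretches in 6 of 13 members (46.2%), of which 5 had at least 3 and 3 at least 5. Celsr2 followed Dchs1 and Fat1 with 5 stretches and a largest log2 fold of 5.76. Notch2 held its 4 stretches, 22 peaks and 1106 bases in the 3′ UTR only, with a largest log2 fold of 5.18. Members of this list therefore either had no stretch or, with the exception of Notch1 at 1 stretch, held at least 3.

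Some genes of the m6A machinery carried stretches themselves. Of 26 members, 11 (42.3%) had a stretch, 5 had at least 3 and 2 at least 5. Virma, the large scaffold of the methyltransferase complex, held 6 stretches and 1180 bases in coding sequence, 3′ UTR and intron. Rbm15b held 5 stretches at chr9:106884219-106886206, with 23 peaks and a largest log2 fold of 5.07. Of the readers, Ythdf2, which promotes mRNA decay, held 4 stretches, and Ythdf3 held 3 in coding sequence. The nuclear reader Ythdc1 had 3 stretches, of 30, 313 and 184 bases, all in introns at chr5:86828255-86829481, with largest log2 folds of 3.54, 3.35 and 4.13. Mettl3 had 0 stretches, as did Mettl14 and the demethylase genes Fto and Alkbh5, which were picked out after their values were seen.

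Genes of the early growth response carried few stretches each, and a minority of them were finely divided. Of 33 immediate early genes, 25 (75.8%, interval 57.7 to 88.9) had a stretch, but only Egr1 had at least 3 and 0 had at least 5. The median was 3 peaks per gene, against 2 over all genes with a stretch. At least 5 peaks were found in 8 of the 25 (32%), against 20.7% of all genes with a stretch, and these 8 held 181 of the 220 peaks of the list. Ier5 held 26 peaks in 2 stretches of 875 bases together, Fosb 4 peaks in 705 bases and Egr2 3 peaks in 700 bases. Among 15 AP-1 genes, 7 (46.7%) had a stretch, 0 had at least 3, and the median of their largest log2 folds was 5.07. Jund reached 5.87, Junb 5.08 and Fosl2 5.07, and in each of them, as in Jun, a stretch joined coding sequence and 3′ UTR. Of 22 KLF and SP factors, 11 (50%) had a stretch and no member had more than 2, with the highest log2 fold of 5.65 in Klf13.

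Lists of feedback inhibitors of signalling had a stretch in nearly all members. Of 16 genes in a list named ERK feedback, 14 (87.5%, interval 61.7 to 98.4) had a stretch and 3 had at least 3. It combines Dusp phosphatases with Sprouty and Spred inhibitors. The phosphatases were not separated by the kinase they act on, so the name need not hold for each of them, Dusp16 included. Dusp16 held 4 coding stretches, Spry4 held 3, and Dusp5 held 29 peaks in 3 stretches of 487 bases. Of 8 SOCS genes, which restrain cytokine signalling, 7 (87.5%, interval 47.3 to 99.7) had a stretch, with 6 in Socs6 and 3 in Socs5. Socs3, Socs4 and Cish each held 1.

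Among 54 genes put together as having their coding sequence in a single exon, 38 (70.4%, interval 56.4 to 82.0) had a stretch, 11 had at least 3 and 1 at least 5. That gene was Irs1, an adaptor of insulin signalling, with 5 stretches and 1506 bases over 5′ UTR, coding sequence and 3′ UTR. Slitrk5 and Irs2 held 4 each. In Irs2 a 17-base coding stretch at chr8:10986998-10987014 lay apart from the other coding stretches at chr8:11005399-11007883, so the name of the list does not hold for it in the authors' annotation, and it was not checked for the other members. Of 40 p53 targets, 20 (50%) had a stretch, 2 had at least 3 and 0 at least 5. Dyrk3, a kinase, and Aen, an exonuclease of apoptosis, held 3 stretches each, and the ubiquitin ligase component Fbxw7 held 2 with a largest log2 fold of 5.33.

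Ribosomal protein and respiratory chain lists stood at the other end, below the 20.1% of all RefSeq protein-coding genes. Of 60 ribosomal protein genes 0 had a stretch (exact 95% interval up to 5.96%), and of 38 respiratory chain genes 0 (interval up to 9.25%). Of 44 cell cycle genes 5 (11.4%, interval 3.79 to 24.6) had a stretch. E2f3 held 2, and Cdkn2c, E2f1, Mki67 and Aurkb held 1 each. Of 33 matrix genes 10 (30.3%, interval 15.6 to 48.7) had a stretch, and none of those had more than 1. No list was tested against the 20.1%, and the intervals do not serve as such a test. Tnc, the matrix glycoprotein tenascin C, held a coding stretch of 631 bases and 15 peaks. Of 19 nuclear long noncoding RNAs 4 (21.1%) had a stretch, a share near that of protein-coding genes: Xist with 4, the p53-induced Trp53cor1 with 2, and Neat1 and Malat1 with 1.

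**Figure D5:**
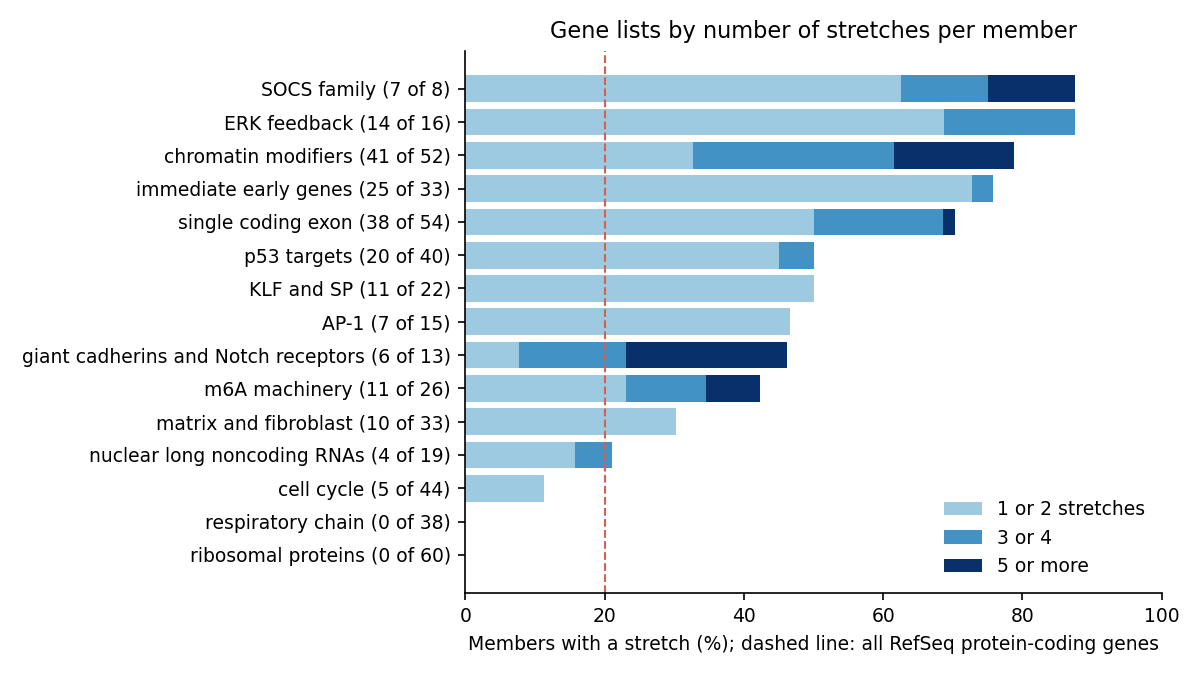
Share of members of each list with a stretch (horizontal axis, percent), divided by shade into members with 1 or 2, 3 or 4, and 5 or more stretches, with the members with a stretch of all members in brackets. The dashed line is the 20.1% of all RefSeq protein-coding genes. Chromatin modifiers and giant cadherins and Notch receptors hold the most members with 5 or more, 9 and 3, and ribosomal protein and respiratory chain genes hold 0 members with a stretch.

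The labelled cell type was checked against marker lists. Of 14 fibroblast markers 4 had a stretch, all in the 3′ UTR: Pdgfrb with 4, Prrx1 and Twist1 with 2 and Pdgfra with 1. Of 10 haematopoietic, 6 epithelial, 4 endothelial and 6 neural markers 0 had a stretch. The markers Col1a1, Col1a2, Col3a1 and Vim, which fibroblasts express strongly, also had none, so a peak list does not stand in for expression and this check is a weak one.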

How the data were processed

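Libraries were prepared by the eCLIP procedure, per the labels' protocols. Per the submitters' processing notes, reads passed through UMI-tools 0.5.1 and cutadapt 2.7 and were placed on mm10. Aligner, peak caller and test: not given in the sources used here. For each peak the authors deposited a log2 fold over input, a −log10 p-value limited to 400, a gene name and a region. Read depth is unknown. Of the peaks, 55.9% stood at that limit, and the largest value under it was 88.2.

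Peaks that touched on the same strand were joined (gap 0), coordinates, taken as 0-based half-open, are printed 1-based, and a gene was the authors' gene name. The 97 peaks under 2 names counted for both. Proximal and distal introns were combined. Of 4765 names, 4607 matched RefSeq (GRCm38.p6), and 4504 had all stretches inside the RefSeq span. Region densities per coding length and motifs over the genome were not run, as no genome or protein sequence was used here. The search of RefSeq windows left out chromosome 18, so its stretches are absent from the window and motif counts. The groups follow the labels, 1 library each, so nothing was tested between conditions. Intervals of shares are exact Clopper-Pearson at 95%, computed with scipy 1.17.1. Joining was checked on simulated data. Python 3.11.15, pandas 2.3.3, numpy 2.4.6 and matplotlib 3.10.9 were used.

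Named were Mettl3, the 10 genes with most stretches and with most bases, the 8 longest stretches, the 8 genes with most region classes, the 5 densely methylated genes with the largest and the 5 with the smallest median fold, and up to 5 members per list; 1 gene that this rule names is not reported here. The orders by peaks, by share of gene span and by division of a stretch, the tally of peaks per list, and the genes shown with sequence, were chosen after the files were seen. The members and the 15 functional and 5 marker lists were chosen with earlier results of these data known. Alternatives covered joining, filters on p and fold, length, ranking and denominators.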

Additional observations from a re-analysis of the deposited data

How the results depend on the processing

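The counts per gene depended on what was joined. With each peak counted alone the median was 2 per gene, 985 genes had at least 5, the median length was 119 bases and 0% spanned more than 1 class. With gaps of up to 50 bases joined the median length was 236 bases and 8.92% spanned more than 1 class. With gaps of up to 200 bases, 51 genes had at least 5 stretches, the median length was 256 bases and 11.5% spanned more than 1 class.

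Stricter lists were shorter. With only peaks at the upper limit of −log10 p, 2509 genes were left and 25 had at least 5 stretches, the median length was 262 bases, 322 bases were joined per gene, 23.3% of genes had more than 1 class and 11.5% of stretches spanned more than 1. With only peaks at a log2 fold of at least 4, 2120 genes were left and 4 had at least 5, with 180 bases per stretch, 211 bases per gene, and shares of 12.3% and 5.97%. Without the 1338 peaks (8.67%) whose linear fold was a whole multiple of 1.17, within 0.0001, the median length was 235 bases and 103 genes had at least 5 stretches. Of the 10 genes with most stretches, 6 were shared with the ranking by bases, 0 with that per kilobase between the first and last joined base, 4 with that at a log2 fold of at least 4, and 2 with that by deposited peaks, which was added after seeing the data.

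In total 44 alternative values were labelled as kept and 24 as moved, and many labels could not have differed. Joining cannot change the joined bases or region classes of a gene, and lists without a densely methylated gene could not move. A list share counted as kept inside the exact interval of its main value, which is wide for short lists. For giant cadherins and Notch receptors it fell from 50% to 23.1% with all members as denominator and was still labelled as kept. A minimum of 20 bases per stretch left 137 genes with at least 5 stretches, and leaving out peaks under 2 gene names, added after seeing the data, left 138. The share of coding length under stretches was not run. No paired analysis was possible because there was 1 library per condition and no test. The unknown depth limits what a missing stretch can show.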

Other observations

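Some values belonged to no group of the report. These genes were picked after their values were seen. Eme2, a subunit of a structure-specific nuclease, held 8 stretches, 11 peaks and 1064 bases, all annotated as 3′ UTR, over a region that extended beyond its 2936-base RefSeq span, and its largest log2 fold was 5.40. Morn1 held 7 stretches, all annotated as intron, in 1069 bases with a largest log2 fold of 5.84. In 2010111I01Rik 4 of 7 stretches were intronic and lay within chr13:63214847-63215942, away from its coding stretch at chr13:63015322-63015906.

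The share of RefSeq protein-coding genes with a stretch varied by chromosome, from 26.4% on chromosome 18 (135 of 511), 26.1% on 12 and 24.4% on 8 to 15.7% on 7 (318 of 2030) and 10.2% on X (99 of 966). On the Y chromosome 0 of 256 genes had one. Which of these genes are expressed in the cells was not analysed here.

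Among stretches, 12 joined peaks that the authors had given to different gene names.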
